A study of Mus musculus with 31 samples.

Results

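The subject was 10 genes of lysosomal proteolysis: the cathepsins Ctsa, Ctsb, Ctsc, Ctsd, Ctsh, Ctsl, Ctss and Ctsz, and the cystatins Cst3 and Cstb. They were chosen by symbol, and all 10 were found among the 24411 entries of the deposited gene count table. RNA-seq libraries of Ly6C-high monocytes from C57BL/6J mice were compared in 3 groups of 3: blood of healthy mice (healthy blood), blood of mice carrying subcutaneous Lewis lung carcinoma (LLC blood), and the LLC tumors themselves (LLC tumor). LLC is a transplantable mouse lung carcinoma cell line. All groups were sorted through the same gate (CD11b+, Ly6G-, Ly6C high, MHC-II-). Age, sex, pooling of animals and sequencing batch are not given in the sources used here. The labels do not say that the libraries came from separate animals, so the p-values measure the spread between these libraries, which may be technical. The other 22 of the 31 samples of the series (chromatin assays of blood monocytes) were not analysed here.

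Cathepsins are proteases that are made as inactive precursors, tagged with mannose 6-phosphate, carried to endosomes and lysosomes and activated there in acid. Most are cysteine proteases; Ctsd is an aspartic protease and Ctsa a serine carboxypeptidase. Cystatins block cysteine cathepsins: Cst3 (cystatin C) is secreted, and Cstb (stefin B) stays in the cytosol. Monocytes use these enzymes to degrade what they take up and to process antigen, and macrophages, into which Ly6C-high monocytes can mature in tissue, are rich in them.

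Between 10457492 and 20706412 reads were counted per library, and the 10 genes took 0.797% to 1.25% of them. Levels are normalised CPM, that is, counts scaled by the library total (CPM) and corrected by the TMM factor of edgeR; they compare a gene between libraries, not genes with each other. LLC tumor 1 stood apart from its group. Its TMM factor was 0.798 against 0.968 and 0.999 for LLC tumor 3 and 2, and its counts differed from theirs with a chi-square per degree of freedom of 48.3 and 38.0, against 4.72 to 14.6 for all other pairs within a group. It was the highest tumor library for 9 of the 10 genes, all but Ctsl. Calls that change without it are given beside the gene. It also touches the comparison of the blood groups, through the spread and scaling that all 9 libraries share. None of the 8 monocyte markers was at 0 in any group, but their summed level was 31935 to 35672 normalised CPM in healthy blood, 21821 to 25489 in LLC blood and 14237 to 22419 in the tumor. In the tumor against LLC blood 3 of the 8 were called higher and 4 lower; Ly6c2, which encodes the sorted antigen, averaged 1614 in healthy blood, 1094 in LLC blood and 401 in the tumor.

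In the tumor, 5 of the 10 genes rose against LLC blood (Ctsl, Cstb, Ctsd, Ctsb and Ctsc), Cst3 fell, and Ctss, Ctsh, Ctsz and Ctsa did not pass the test (edgeR's quasi-likelihood test, Benjamini-Hochberg adjusted p under 0.05 over 12337 genes). Of all genes tested, 61.3% were called, 29.6% higher and 31.7% lower, so 6 called of 10 is near the background. The median log2 fold change of the 10 was 0.52, beside -0.03 for all genes. Against healthy blood the same 5 rose and Cst3 fell, where 66.5% of all genes were called, 33.5% higher and 33.0% lower. The median was 0.55, beside -0.0025 for all genes; both tumor comparisons use the same tumor libraries. Between LLC blood and healthy blood, Ctsl alone of the 10 was called, as higher, and 0 were called lower; the background was 23.6%, with 14.0% higher and 9.61% lower. The median was -0.03, beside -0.01 for all genes. In that comparison 2 of the 10, Ctsl and Cst3, had an unadjusted p under 0.05, DESeq2 called 1 lower and limma-voom called 3 lower. Of all genes, DESeq2 called 26% there in either direction, limma-voom 47.7% and edgeR with only the 6 blood libraries 42.3%. Without LLC tumor 1 the counts were 5 higher and 4 lower in the tumor against LLC blood, and 3 higher and 3 lower in LLC blood against healthy blood. That fit called 67.1% of all genes in the former comparison and 39.4% in the latter, so the background rose too.

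**Figure D1:**
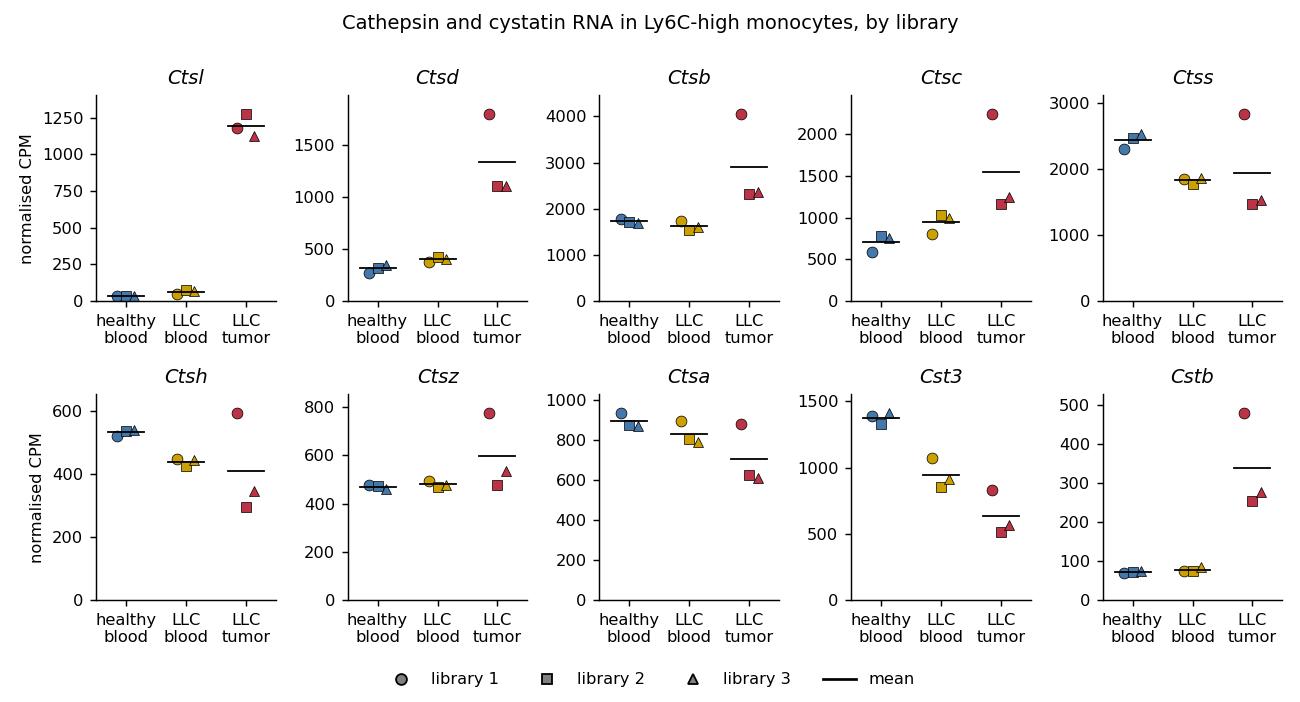
Normalised CPM (vertical axis, a separate linear scale from 0 for each gene) of the 10 genes in each library of healthy blood, LLC blood and LLC tumor; symbols mark the library number and lines the mean of 3. Ctsl lies at 36.7 to 73.0 in the 6 blood libraries and at 1123 to 1276 in the tumor, and LLC tumor 1 (circle) is the highest tumor library in every panel but that of Ctsl.

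Ctsl (ENSMUSG00000021477, chr13:64361890-64370772, GRCm38.p6) encodes cathepsin L, a cysteine endopeptidase of broad specificity. It measured 36.7, 37.3 and 38.3 normalised CPM in healthy blood 1 to 3. In LLC blood it measured 48.8, 73.0 and 67.9, and in LLC tumor 1179, 1276 and 1123. The 3 groups did not overlap, and the healthy libraries were nearly alike (SD 0.840). The rise from healthy blood to LLC blood was 1.69-fold (log2 fold change 0.76 ± 0.14 SE, adjusted p = 0.00483). The tumor lay 18.8-fold above LLC blood (4.23 ± 0.15, adjusted p = 1.44e-07) and 31.9-fold above healthy blood (4.99 ± 0.16, adjusted p = 1.12e-07). Ctsl was called in all 19 other fits of each comparison, which gave 0.65 to 0.92, 4.04 to 4.31 and 4.83 to 5.04 in that order. In these bulk libraries, a different share of cells of a type cannot be told apart from a different amount of RNA per cell.

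Ctsd (ENSMUSG00000007891, chr7:142375910-142387827) encodes cathepsin D, the main aspartic endopeptidase of lysosomes. Its levels were 275, 319 and 351 normalised CPM in healthy blood and 376, 423 and 406 in LLC blood. The tumor libraries measured 1798, 1106 and 1101. All tumor libraries lay above all blood libraries, and LLC tumor 1 lay far above the other two. Tumor exceeded LLC blood 3.32-fold (log2 fold change 1.73 ± 0.19, adjusted p = 5.2e-05), and 1.49 on the log2 scale remained without LLC tumor 1. The blood groups did not overlap either, but their difference of 0.35 ± 0.19 did not pass the test (adjusted p = 0.214). Ctsd was called higher in LLC blood without LLC tumor 1 (0.30, adjusted p = 0.0198), with only the 6 blood libraries (adjusted p = 0.0166) and with limma-voom (adjusted p = 0.00678).

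The 250 bases upstream of the annotated Ctsd start are shown because they hold the letters CACGTG at 2 places, 245 and 98 bases before the start. CACGTG is the core of the CLEAR element that TFEB, TFE3 and MITF, the transcription factors of lysosome biogenesis, are known to bind, and TCACGTGA is a fuller form of it. The window of Cst3, the one gene that fell in the tumor, is set beside it. In both, 5′ to 3′ on the gene's minus strand, capitals mark CACGTG. The sequences are from RefSeq, build GRCm38.p6, and neither window overlaps an annotated gene.
Ctsd, chr7:142387828-142388077: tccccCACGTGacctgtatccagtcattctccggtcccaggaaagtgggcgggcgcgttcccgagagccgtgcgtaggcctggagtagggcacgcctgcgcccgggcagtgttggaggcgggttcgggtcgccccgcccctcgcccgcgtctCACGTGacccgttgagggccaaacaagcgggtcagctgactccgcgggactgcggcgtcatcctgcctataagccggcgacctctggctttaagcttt
Cst3, chr2:148875513-148875762: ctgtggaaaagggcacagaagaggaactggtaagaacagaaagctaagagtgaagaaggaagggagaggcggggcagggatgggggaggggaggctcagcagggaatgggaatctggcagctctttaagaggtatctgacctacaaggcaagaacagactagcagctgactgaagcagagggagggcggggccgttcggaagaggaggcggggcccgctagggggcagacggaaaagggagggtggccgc

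The same search covered 8 windows of 7 of the 10 genes; Ctsb, Ctsh and Cstb were not matched in the promoter table. CACGTG, which reads the same on both strands, was in the windows of Ctsd, Ctsl and Ctsa, 3 of 7 genes, beside 6.86% of 27025 genes and 6.02% of 32851 windows of that length. TCACGTGA, which contains it, was in those of Ctsd and Ctsa, beside 0.91% of genes. Ctsd and Ctsl rose in the tumor and Ctsa did not pass the test. Ctsc, which also rose in the tumor, had no match in its window. Ctss and Ctsz, which did not pass the test, and Cst3, which fell, had none either. The Ctsl match lies 236 bases before the start and the Ctsa match 12 bases before the start of 1 of its 2 windows. Both of those windows lie inside the annotated gene, and that of Ctsa also overlaps Neurl2, so short stretches are shown.
Ctsl: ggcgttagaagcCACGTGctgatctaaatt
Ctsa: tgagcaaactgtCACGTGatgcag
A match describes the letters only; binding was not measured in these libraries.

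Ctsb (ENSMUSG00000021939, chr14:63122462-63145923) encodes cathepsin B, a cysteine protease that acts both within chains and from their carboxyl end. It measured 1778, 1720.3 and 1703 normalised CPM in healthy blood and 1744, 1534 and 1609 in LLC blood. In the tumor it measured 4058, 2313 and 2371. The blood groups overlapped, and all 3 tumor libraries were above them, LLC tumor 1 most of all. Tumor exceeded LLC blood 1.79-fold (0.84 ± 0.20, adjusted p = 0.00558), or by 0.55 on the log2 scale without LLC tumor 1, which is over 1.5 times smaller. Ctsb overlaps Fdft1 on the genome, and its counts were not whole numbers in any library. The same holds for Ctsa, which overlaps Neurl2 and Pltp. Ctss overlaps Hmgb1-ps5 and Ctsz overlaps Nelfcd, but the counts of both were whole numbers in every library. The cause of the fractional counts was not tested.

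Ctsc (ENSMUSG00000030560, chr7:88278024-88315861) encodes cathepsin C, a dipeptidyl peptidase that activates the serine proteases of granules. It measured 595, 780.2 and 753 normalised CPM in healthy blood and 808, 1034 and 995 in LLC blood. Tumor libraries measured 2246, 1162 and 1250.0. The groups did not overlap, but LLC blood 2 and LLC tumor 2 were close. Tumor exceeded LLC blood 1.64-fold (0.72 ± 0.24, adjusted p = 0.0284). This call was lost without LLC blood 1, 2 or 3 (adjusted p = 0.0999, 0.0537 and 0.0632), and without LLC tumor 1 the difference shrank to 0.38 (adjusted p = 0.0223). Tumor exceeded healthy blood 2.19-fold (1.13 ± 0.25, adjusted p = 0.00273), or by 0.74 without LLC tumor 1. LLC blood against healthy blood gave 0.41 ± 0.24 (adjusted p = 0.25), which became a call without LLC tumor 1 (0.36, adjusted p = 0.03), with only the 6 blood libraries (adjusted p = 0.0243) and with limma-voom (adjusted p = 0.0108).

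Ctss (ENSMUSG00000038642, chr3:95526786-95556405) encodes cathepsin S, the protease that removes the invariant chain Cd74 from MHC class II and stays active at neutral pH. It measured 2296, 2469 and 2519 normalised CPM in healthy blood and 1842, 1769.8 and 1866 in LLC blood. The tumor libraries measured 2831, 1465 and 1523. LLC blood lay below healthy blood in every library, with a difference of -0.41 ± 0.23 that did not pass the test (adjusted p = 0.226). It was called lower without LLC tumor 1 (-0.46, adjusted p = 0.000367), with only the 6 blood libraries (adjusted p = 0.00038) and with limma-voom (adjusted p = 0.00253). The tumor libraries lay on both sides of LLC blood (0.09 ± 0.23, adjusted p = 0.758). Without LLC tumor 1 the sign turned: Ctss was then called lower in tumor than in LLC blood (-0.26, adjusted p = 0.00457) and than in healthy blood (-0.73, adjusted p = 7.52e-06).

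Ctsh (ENSMUSG00000032359, chr9:90054267-90076095) encodes cathepsin H, mainly an aminopeptidase. Its levels were 521, 538 and 541 normalised CPM in healthy blood, 449, 425 and 447 in LLC blood, and 595, 296 and 346 in the tumor. As with Ctss, LLC blood was below healthy blood in every library (-0.28 ± 0.22, adjusted p = 0.394), and LLC tumor 1 was above while LLC tumor 2 and 3 were below all blood libraries. No comparison of Ctsh passed the test in the main fit (edgeR with TMM, all 9 libraries). Tumor against healthy blood was called lower in 4 of 19 other fits, which gave -0.76 to -0.18. Without LLC tumor 1 it was called lower in LLC blood against healthy blood (-0.33, adjusted p = 0.00475), in tumor against LLC blood (-0.43, adjusted p = 0.000787) and in tumor against healthy blood (-0.76, adjusted p = 1.87e-05). On all 9 libraries limma-voom called it lower in all 3 comparisons (adjusted p = 0.02, 0.00409 and 8.31e-05 in that order).

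Ctsa (ENSMUSG00000017760, chr2:164832872-164841032) encodes cathepsin A, which cuts single residues from carboxyl ends and shields Neu1 and Glb1 from degradation. It measured 937, 877 and 869.5 normalised CPM in healthy blood, 897, 808 and 794 in LLC blood, and 884, 627 and 612 in the tumor. LLC tumor 1 lay among the blood libraries and the other tumor libraries below them. The difference from LLC blood was -0.24 ± 0.14 (adjusted p = 0.18), and without LLC tumor 1 it was -0.40 and was called (adjusted p = 0.00189). Against healthy blood it was -0.34 ± 0.14 (adjusted p = 0.0611), or -0.55 without LLC tumor 1, which was called (adjusted p = 0.000228). Neu1 and Glb1 did not pass the test in any of the 3 comparisons.

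Ctsz (ENSMUSG00000016256, chr2:174427494-174439039) encodes cathepsin Z, a carboxypeptidase. It measured 476, 472 and 460.0 normalised CPM in healthy blood, 492, 469 and 479 in LLC blood, and 776, 479 and 537 in the tumor. LLC tumor 1 was high and the other tumor libraries were near the blood level. Ctsz did not pass the test in any comparison of the main fit (edgeR with TMM, all 9 libraries), and its tumor difference from LLC blood was 0.31 ± 0.16 (adjusted p = 0.109). It was 0.11 without LLC tumor 1, and it was called without LLC tumor 2 (0.45, adjusted p = 0.0225) and with DESeq2 (0.37, adjusted p = 0.0447). Against healthy blood the tumor difference of 0.35 ± 0.16 (adjusted p = 0.0769) was called in 3 of 19 other fits.

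**Figure D2:**
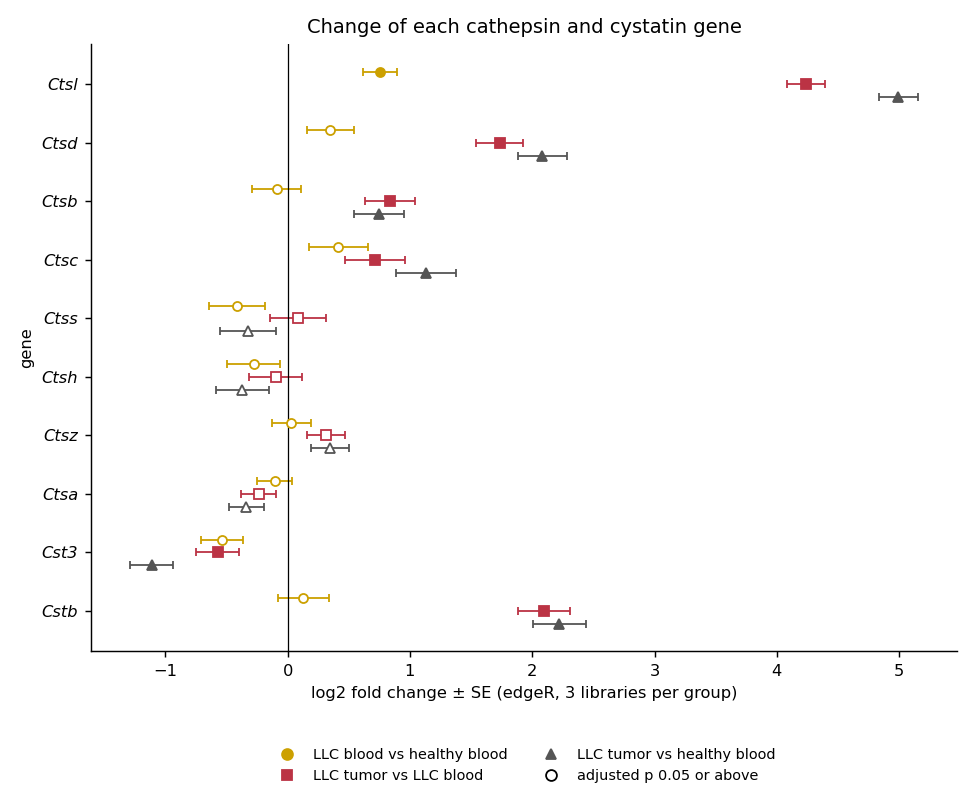
Log2 fold change (horizontal axis) with its SE for each of the 10 genes in 3 comparisons, from edgeR with 3 libraries per group; filled symbols have an adjusted p under 0.05. Ctsl has the largest change of the 10 in each comparison, at 0.76, 4.23 and 4.99, and Cst3 is the one gene with a filled symbol to the left of 0.

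The 2 cystatins moved in opposite directions in the tumor. Cst3 (ENSMUSG00000027447, chr2:148871722-148875512), the secreted cystatin C, measured 1386, 1325 and 1412 normalised CPM in healthy blood and 1069, 856 and 916 in LLC blood. In the tumor it measured 831, 512 and 568. The groups did not overlap and stood in that order. The step from LLC blood to tumor was -0.57 ± 0.17 (adjusted p = 0.0176); it was lost without LLC blood 1, LLC tumor 2 or LLC tumor 3 (adjusted p = 0.0521, 0.0515 and 0.0644). From healthy blood to LLC blood the difference was -0.54 ± 0.17, which just missed the threshold (adjusted p = 0.0525) and was called in 11 of 19 other fits, among them the one without LLC tumor 1 (-0.59, adjusted p = 0.00139). Healthy blood to tumor gave -1.11 ± 0.18 (adjusted p = 0.000415), called in 19 of 19.

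Cstb (ENSMUSG00000005054, chr10:78425670-78427622), the cytosolic stefin B, measured 69.4, 71.1 and 75.8 normalised CPM in healthy blood and 74.6, 76.0 and 85.5 in LLC blood. The tumor libraries measured 479, 254 and 277. The blood groups overlapped, and every tumor library was far above them. Tumor exceeded LLC blood 4.27-fold (2.10 ± 0.21, adjusted p = 2.96e-05), or by 1.78 on the log2 scale without LLC tumor 1.

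Ratios within a library do not depend on its scaling. Each Cstb count was matched by 19.98, 18.6 and 18.6 Cst3 counts in healthy blood, 14.3, 11.3 and 10.7 in LLC blood, and 1.74, 2.02 and 2.05 in the tumor. LLC tumor 1, which stood apart in level, was close to the other tumor libraries here. The counts of both cystatins came to 25.5, 23.2 and 24.7 per 100 counts of the 6 cysteine cathepsins in healthy blood. They came to 21.2, 17.6 and 18.3 in LLC blood and to 11.2, 11.0 and 11.8 in the tumor. The groups did not overlap and the tumor libraries were nearly alike; these are counts of RNA, not of protein or activity, and transcript length was not corrected.

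The make-up of the cathepsin counts shifted as well. Ctss took 33.2% to 34.8% of the counts of the 8 cathepsin genes in healthy blood, 27.1% to 28.0% in LLC blood and 16.8% to 19.7% in the tumor. Ctsl took 0.518% to 0.530%, 0.733% to 1.12% and 8.21% to 14.6%, and Ctsd 3.98% to 4.86%, 5.65% to 6.47% and 12.4% to 12.7%. For each of these 3 genes the shares of the groups did not overlap. Per 100 Ctss counts there were 1.60, 1.51 and 1.52 Ctsl counts in healthy blood, 2.65, 4.12 and 3.64 in LLC blood, and 41.7, 87.1 and 73.8 in the tumor. Summed over the 8 genes, the level was 6915 to 7235 normalised CPM in healthy blood, 6535 to 6663 in LLC blood and 8725 to 14367 in the tumor, so the tumor libraries were above the blood libraries in the sum too.

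**Figure D3:**
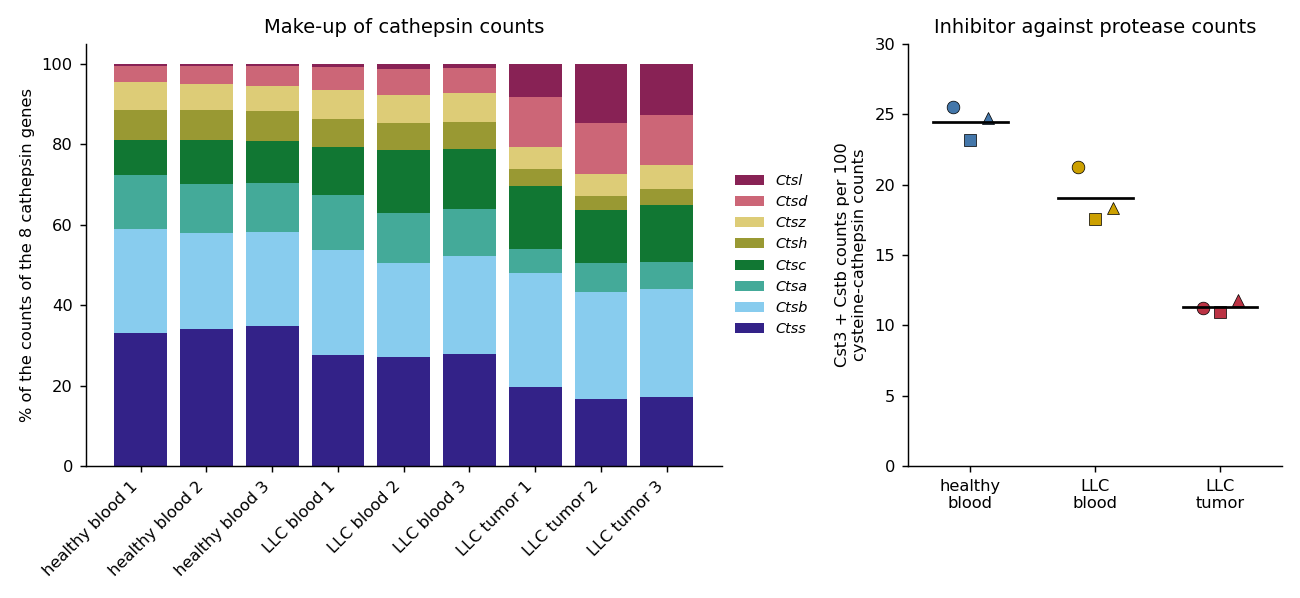
Left, the share of each of the 8 cathepsin genes in their summed counts (%, stacked to 100) in each of the 9 libraries; right, Cst3 plus Cstb counts per 100 counts of the 6 cysteine cathepsins, with a line at the mean of 3 libraries. Ctss narrows and Ctsl and Ctsd widen in the tumor bars, and the inhibitor ratio goes from a mean of 24.5 in healthy blood to 19.0 in LLC blood and 11.3 in the tumor.

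Markers of other cells changed between the groups beside these genes. The summed level of 5 fibroblast markers (Col1a1, Col1a2, Col3a1, Dcn, Pdgfra) was 14.5, 2.84 and 4.51 normalised CPM in healthy blood, 386, 1.17 and 1.53 in LLC blood, and 1068, 3299 and 3813 in the tumor; 3 of 5 were called higher in tumor than in LLC blood and none of the 5 was at 0. In LLC blood 1, the blood library with the highest fibroblast sum, Ctsl was the lowest of its group (48.8). Without that library the rise of Ctsl from healthy blood was 0.92 on the log2 scale. The fibroblast sum of LLC blood 1 was mostly Col1a1 and Col1a2 (202 and 124), with Col3a1 at 54.4, Dcn at 3.82 and Pdgfra at 2.00. In the tumor Col3a1 and Dcn were highest (means 2300 and 241), and Col1a1 averaged 86.8. Among the tumor libraries, LLC tumor 1 had the lowest fibroblast sum, and its Ctsl (1179) lay between theirs (1276 and 1123). The 8 markers of mature macrophages summed to 1264 to 1471 in healthy blood, 701 to 719.8 in LLC blood and 1539 to 2906 in the tumor; 6 of 8 were called higher and 1 lower in tumor than in LLC blood, and none was at 0. In LLC blood against healthy blood 5 of these 8 were called lower and 0 higher. Apoe had the highest mean of the 8 in each group, at 992 in healthy blood, 313 in LLC blood and 803 in the tumor. Single markers differed from the sum: C1qa averaged 7.17, 1.67 and 209, Mrc1 21.2, 6.59 and 428, and Adgre1 284, 312 and 211. The 4 LLC cell markers summed to at most 0.692 in blood and to 12.9, 43.0 and 37.2 in the tumor, with Cldn4 at 0 there. The 5 endothelial markers summed to 10.6 to 12.9 in LLC blood and 50.8 to 87.2 in the tumor, and the 3 of them with enough counts were all called higher. The part of these cells in the differences between the groups was not tested.

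**Figure D4:**
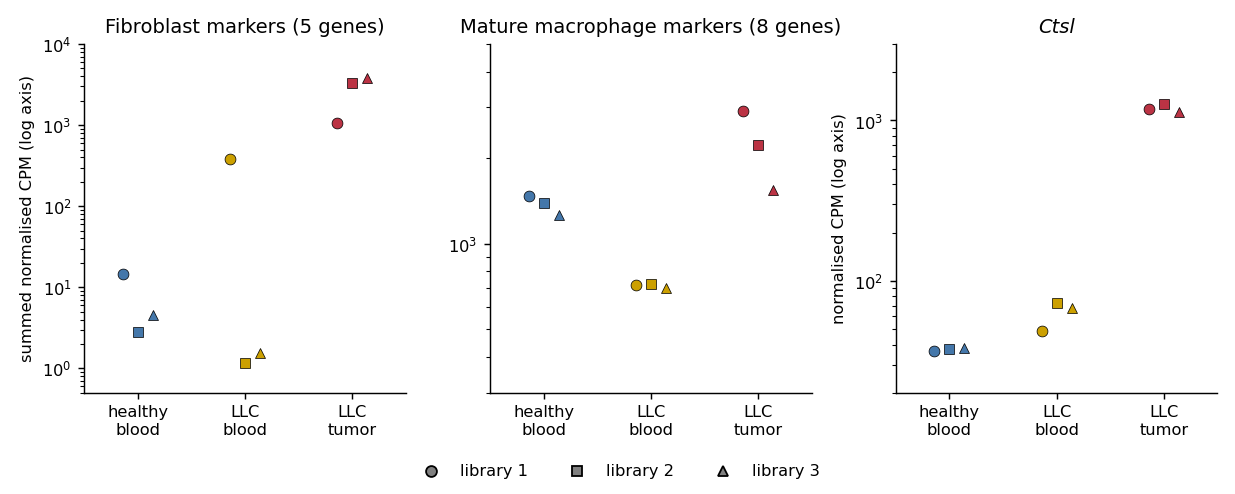
Summed normalised CPM of 5 fibroblast markers (left) and 8 mature macrophage markers (middle), and normalised CPM of Ctsl (right), in each library, all on log axes; symbols mark the library number. LLC blood 1 has a fibroblast sum of 386, mostly Col1a1 and Col1a2, beside 1.17 and 1.53 in its group. Its Ctsl is at 48.8, the lowest of the 3.

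Other members of the protease family were few. Of 15 other cathepsins and legumain, 7 had enough counts to be tested; in the tumor against LLC blood 2 were called higher and 3 lower, and 2 lower and 1 higher in LLC blood against healthy blood, where 61.3% and 23.6% of all genes were called. The latter counts moved to 1 lower without healthy blood 1, LLC blood 2 or LLC blood 3, and to 2 higher without healthy blood 1 or LLC tumor 1 and 0 without LLC blood 2. Lgmn, the asparaginyl endopeptidase that trims several cathepsins to their mature chains, averaged 159.8 ± 8.17 normalised CPM (SD, n = 3) in healthy blood, 168.9 ± 6.42 in LLC blood and 1129 ± 444 in the tumor. It rose in the tumor against LLC blood (2.74 ± 0.23, adjusted p = 9.75e-06) and did not differ detectably between the blood groups (0.08 ± 0.22, adjusted p = 0.829). Ctso, a widely expressed cysteine cathepsin, fell from 43.9 ± 2.30 in healthy blood to 34.3 ± 1.74 in LLC blood (-0.36 ± 0.09, adjusted p = 0.0169), a call lost without healthy blood 1, LLC blood 2 or LLC blood 3. Chosen after their values were seen, Ctsk and Ctsw both averaged below 20 normalised CPM. Ctsk, the collagen-degrading cathepsin of osteoclasts and fibroblasts, averaged 0.999 ± 0.553 in LLC blood and 6.28 ± 4.94 in the tumor. It rose there (2.70 ± 0.58, adjusted p = 0.00283). The fibroblast markers were higher in the tumor too, and their part in this rise was not tested. Ctsw, a cathepsin of T and NK cells, averaged 15.1 ± 5.18 in healthy blood and 2.14 ± 0.359 in LLC blood. This fall was called (-2.80 ± 0.42, adjusted p = 0.00191). The summed T and NK cell markers were 82.2 to 178.6 in healthy blood and 22.6 to 29.8 in LLC blood, with none of the 8 at 0, and their part in the Ctsw difference was not tested. The placental cathepsins Ctsj, Ctsm, Ctsq, Ctsr, Cts3, Cts6 and Cts7 had no count in any library.

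Of 18 other inhibitors of cathepsins and granule proteases, 8 were tested, and in the tumor against LLC blood 3 were called higher and 1 lower (2 lower without LLC blood 1 or LLC tumor 1); LLC blood against healthy blood gave 1 higher and 4 lower. Over all genes 61.3% and 23.6% were called in these comparisons, which puts the tumor count near and the blood count above the background. In the tumor comparison the 19 other fits called 2 to 4 higher and 1 to 2 lower. The 4 called lower in LLC blood were Cst7, Ctla2a, Ctla2b and Serpinb6b. They averaged 5.92, 9.28, 2.11 and 7.83 normalised CPM in healthy blood and 1.89, 1.40, 0.399 and 0.685 in LLC blood. The T and NK cell markers were lower in LLC blood too, and their part in these falls was not tested. Serpinb6a, an inhibitor of granule serine proteases, rose from 6.55 ± 1.499 normalised CPM in LLC blood to 76.7 ± 29.9 in the tumor (3.57 ± 0.29, adjusted p = 7.46e-06). Serpinb1a, which inhibits neutrophil elastase, cathepsin G and proteinase 3, measured 25.2 ± 4.06 in healthy blood, 44.5 ± 2.32 in LLC blood and 8.68 ± 2.36 in the tumor. It thus rose in LLC blood (0.82 ± 0.17, adjusted p = 0.00913) and fell in the tumor against LLC blood (-2.35 ± 0.19, adjusted p = 7.11e-06).

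Genes of enzyme sorting were called in both directions. Of 14 genes of lysosomal enzyme sorting and lysosome biogenesis, all tested, 2 were called higher and 6 lower in the tumor against LLC blood, and the median log2 fold change was -0.22, beside -0.03 for all genes. That is near the 61.3% of all genes called there. Igf2r, the large mannose 6-phosphate receptor, averaged 6.41 ± 1.195 normalised CPM in healthy blood, 3.92 ± 0.657 in LLC blood and 235.8 ± 52.4 in the tumor. It rose by 5.88 ± 0.23 on the log2 scale against LLC blood (adjusted p = 1.93e-07), more than any of the 10 genes. M6pr, the small receptor, was not called in that comparison (0.31 ± 0.16, adjusted p = 0.12). Sort1, sortilin, a receptor that carries lysosomal proteins without the sugar tag, averaged 229.6 ± 19.8 in healthy blood, 333.7 ± 26.5 in LLC blood and 53.4 ± 8.94 in the tumor. It rose in LLC blood (0.54 ± 0.12, adjusted p = 0.0136), and fell in the tumor (-2.64 ± 0.13, adjusted p = 5.06e-07). The smaller of these changes, in LLC blood, lost its call when any of 4 libraries was left out (the second or the third of either blood group). Nagpa, which uncovers the mannose 6-phosphate tag, fell in the tumor as well (-1.27 ± 0.08, adjusted p = 1.28e-06).

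Among the genes of the factors that bind CACGTG, Mitf rose in the tumor against LLC blood (1.13 ± 0.17, adjusted p = 0.000278) and Tfeb fell (-0.86 ± 0.17, adjusted p = 0.00192), while Tfe3 did not pass the test (0.15 ± 0.08, adjusted p = 0.144). In LLC blood against healthy blood, 2 of the 14 were called higher (Sort1 and Gnptab, a subunit of the enzyme that adds the tag, 0.46 ± 0.10, adjusted p = 0.0101) and 0 lower, beside 23.6% of all genes. By unadjusted p under 0.05, 4 were higher and 1 lower; DESeq2 called 1 lower and limma-voom 3, and edgeR called 2 lower without LLC tumor 1. Of all genes these fits called 26%, 47.7% and 39.4% in that order. Igf2r was the lowest of the 14, at -0.69 ± 0.23 (adjusted p = 0.058), and both DESeq2 and limma-voom called it lower.

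**Figure D5:**
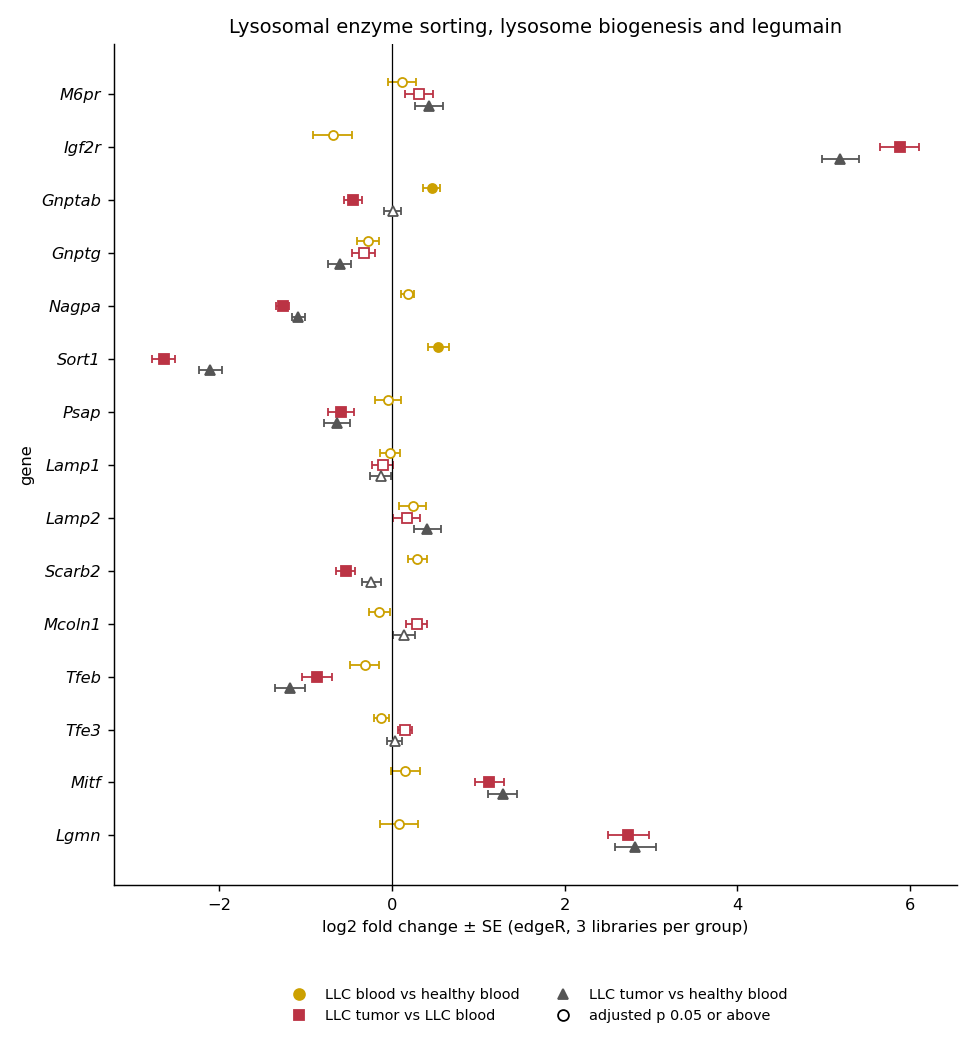
Log2 fold change (horizontal axis) with its SE for 14 genes of lysosomal enzyme sorting and lysosome biogenesis and for Lgmn, in 3 comparisons, from edgeR with 3 libraries per group; open symbols have an adjusted p of 0.05 or above. Igf2r lies farthest to the right, at 5.88 for tumor against LLC blood, and Sort1 farthest to the left, at -2.64.

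Known partners and substrates of the 10 genes were mixed: of 9 tested, 4 were called higher and 3 lower in LLC blood against healthy blood, and 0 higher and 6 lower in the tumor against LLC blood. The background was 23.6% in the former, below this count, and 61.3% in the latter, near it. Ctsg is counted both here and among the other cathepsins. Of the genes called lower in the tumor, Elane, Ctsg, Gzma and Gzmb had at most 8, 7, 12 and 18 counts in any tumor library. With DESeq2 and limma-voom 0 of the 9 were called higher in the tumor comparison too, and none had a positive difference with an unadjusted p under 0.05. Cd74, the invariant chain cut by Ctss, averaged 863.8 ± 153 normalised CPM in healthy blood, 373.2 ± 71.4 in LLC blood and 396.5 ± 137 in the tumor, and fell in LLC blood (-1.21 ± 0.26, adjusted p = 0.0102). The gate removed MHC-II+ cells, and Cd74 is expressed with MHC class II. Ifi30, the thiol reductase that unfolds proteins for lysosomal proteases, rose in LLC blood (0.57 ± 0.12, adjusted p = 0.0104), a call lost without healthy blood 3, and fell in the tumor (-0.93 ± 0.12, adjusted p = 0.000162).

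The granule proteases that Ctsc activates went in different directions in the blood. Prtn3, proteinase 3 of immature myeloid cells, averaged 8.51 ± 2.74 normalised CPM in healthy blood, 42.1 ± 12.7 in LLC blood and 9.48 ± 2.99 in the tumor. It rose in LLC blood (2.31 ± 0.31, adjusted p = 0.00112) and fell in the tumor (-2.14 ± 0.31, adjusted p = 0.000271). Gzma and Gzmb, the granzymes of cytotoxic lymphocytes, fell in LLC blood against healthy blood (-3.26 ± 0.37 and -3.66 ± 0.50, adjusted p = 0.000459 and 0.00124). The 8 neutrophil markers summed to 164 to 215 in healthy blood and 223 to 356 in LLC blood. Most of both sums was Mmp8 (means 167 and 268), and 2 of the 8 were called higher and 0 lower. Of the T and NK cell markers 7 of 8 were called lower. Neither list's part in these differences was tested.

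The genes most like Ctsl across the 9 libraries, among 6912 with a mean of at least 20 CPM, were Peak1, Slc39a14, Slc7a11, Whsc1 and Vdr, with Pearson's r of log2 CPM of 0.999, 0.999, 0.998, 0.998 and 0.998. The 10th in rank reached 0.997. Mean normalised CPM in healthy blood, LLC blood and tumor was 18.9, 26.2 and 261.9 for Peak1, a kinase-like scaffold protein, and 2.11, 4.41 and 222.9 for Slc7a11, the cystine transporter. With 3 groups far apart, r mainly restates the order and spacing of the group means, and none of the other 9 genes was among the 5.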

How the data were processed

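RNA-seq of 9 libraries was analysed. The authors deposited a table of estimated counts (expected counts, not normalized) and a CPM table for 10693 of its genes with Ensembl identifiers; from these CPM values whole reads were recovered for 100% of values (tolerance 0.01), equal to the rounded counts. The submitters' processing notes name mm10, STAR 2.6.1d, Salmon 1.9.0, Trim Galore, cutadapt 3.4 and edgeR with no role; the annotation is not given in the sources used here. Per the labels' protocols, TRIzol RNA was made into TruSeq libraries. The blood columns are headed "BM"; since the titles name blood, this was taken as blood monocyte, and the table itself cannot tell it from bone marrow.

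Counts were rounded and fitted with edgeR 4.0.16 (R 4.3.3): quasi-likelihood, TMM, filterByExpr (12337 of 18599 entries with a count kept), all 9 libraries, group as the only term. Adjusted p-values are Benjamini-Hochberg over all genes tested, with a threshold of 0.05. The script was tested on simulated data. All 10 genes passed the filter. Alternatives were other scalings, DESeq2 1.42.0, limma-voom (limma 3.58.1) with sample quality weights, no filter, 6 libraries, truncated counts, the replicate block and each library left out; the genes of the CPM table were added after seeing the data. The 10 genes and all lists were chosen with earlier results of these data known. From each other list, at most the 4 called genes with the largest change and a mean of at least 20 CPM are named per comparison, plus genes that a result turns on. Csta2 and Csta3 were not used here. Coordinates and promoters are RefSeq's, build GRCm38.p6, matched by symbol (10 of 10 genes for coordinates).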

Additional observations from a re-analysis of the deposited data

How the results depend on the processing

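Calls of Ctsl, Ctsd, Ctsb and Cstb as higher in the tumor held in all 19 other fits of both tumor comparisons, and that of Ctsl in LLC blood in 19 of 19. The number of the 10 genes called higher in LLC blood against healthy blood was 1; it was 3 with limma-voom and with only the 6 libraries compared, 0 when a 2-fold change was also asked for, and 1 to 3 with a library left out (3 without LLC tumor 1). The number lower was 0; it was 1 with library totals only, RLE, upper-quartile factors, DESeq2, no filter, the replicate block and the genes of the CPM table, 3 with limma-voom and with 6 libraries, and 0 to 3 with a library left out. Of all genes, limma-voom called 47.7% between the blood groups and the fit of 6 libraries 42.3%. The fit without LLC tumor 1 called 39.4% there, against 23.6% in the main fit. In the tumor against LLC blood, 5 were higher; this was 3 when a 2-fold change was also asked for, 6 with DESeq2, 4 at an adjusted p under 0.01 and with the replicate block, and 4 to 6 with a library left out. There 1 was lower; this was 2 with library totals, 4 with limma-voom, 0 at an adjusted p under 0.01 and 0 when a 2-fold change was also asked for, and 0 to 4 with a library left out (4 without LLC tumor 1, 0 without LLC blood 1, LLC tumor 2 or LLC tumor 3). Against healthy blood, 5 were higher in the tumor (6 with RLE and DESeq2, 5 to 6 with a library left out) and 1 lower; the latter was 4 with library totals and limma-voom, 3 with upper-quartile factors, 2 with no filter, the replicate block and the genes of the CPM table, and 1 to 4 with a library left out.

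Signs turned for Ctsz between the blood groups (-0.020 with upper-quartile factors, -0.019 to 0.049 with a library left out, below 0 without healthy blood 2 or LLC tumor 1), for Ctsh between tumor and LLC blood (-0.43 to 0.10 with a library left out, above 0 without LLC tumor 2 or 3) and for Ctss there (-0.15 with library totals, -0.24 with limma-voom, and -0.26 to 0.26 with a library left out, below 0 without LLC tumor 1). Of the 14 sorting genes, 2 higher and 0 lower between the blood groups became 5 and 3 with limma-voom, which called 47.7% of all genes there. Without a library 0 to 3 were higher and 0 to 2 lower. Library totals alone moved the median of all genes to -0.23 in the tumor against LLC blood and to -0.17 in the tumor against healthy blood; the cause of the other changes was not tested.

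The groups share replicate numbers, but the labels do not say that a number marks a shared animal or day, and the deviations of same-numbered libraries correlated at -0.12 to 0.30, so the numbers were not taken to pair them. With the replicate block 4 genes were called higher in the tumor against LLC blood, Ctsc being lost (0.70, adjusted p = 0.0565).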
